A study of Homo sapiens with 2 samples.

Results

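Secretory granule and neuropeptide genes were followed in WaGa cells, an established line of Merkel cell carcinoma, a neuroendocrine cancer of the skin. The 9 genes were chosen by name, out of 32742 in the deposited table, as neuroendocrine granule proteins, hormone processing and neuropeptide genes: CHGA, CHGB, SCG2, SCG3, SCG5, PCSK1, CALCB, SYP and NCAM1. Of these, 8 had at least 100 unique molecular identifiers (UMIs, each standing for 1 captured RNA molecule) over both libraries, and SCG2 did not. The study had 2 groups of 1 library each. One was WaGa cells given domatinostat, an inhibitor of class I histone deacetylases that was dissolved in DMSO, and the other was WaGa cells labelled as having no treatment, with no mention of DMSO. No source used here states the dose or the duration. Because each group was a single library of a single line, no test between conditions was possible, and every interval below is a 95% exact interval that covers counting error only.

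There were 6679 cells with 60160108 UMIs in the library labelled treated and 4137 cells with 45562976 UMIs in the library labelled untreated. The median cell had 8578 UMIs in the library labelled treated and 11125 in the library labelled untreated. Cells were tied to a library only by the treatment word in their names, and 48 barcodes occurred in both. CDKN1A, a cell cycle inhibitor gene known to be induced by histone deacetylase inhibitors, had 39.4 counts per 1000000 UMIs (CPM) in the library labelled treated against 97.9 CPM in the library labelled untreated, which goes against the labels, so directions are given by label throughout. All 12 genes of a Merkel cell marker list were detected with 100 UMIs or more. Of these, the keratin gene KRT20 had 248 CPM in the library labelled treated and 295 CPM in the library labelled untreated. The 12 markers did not move together, with 6 ratios of labelled treated over labelled untreated above 1 and 6 below. The keratin genes KRT8, KRT18 and KRT19 stood at 0.601, 0.525 and 0.520, each a drop of more than 1.5-fold. SOX2 stood at 1.57, the only rise of that size. All percentages of genes refer to the 12812 genes with at least 100 UMIs unless stated.

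Neuroendocrine cells store peptide hormones in dense-core secretory granules. Granins (the chromogranins CHGA and CHGB and the secretogranins) are acidic proteins that condense the granule content and are themselves cut into peptides. The convertase PCSK1 cuts prohormones inside the granule, SCG5 (7B2) is the chaperone of its relative PCSK2, SYP (synaptophysin) spans the membrane of small vesicles, and NCAM1 (CD56) is a cell surface adhesion molecule. CHGA, SYP and NCAM1 are used in pathology as markers of neuroendocrine tumours, Merkel cell carcinoma included. CALCB encodes the beta form of calcitonin gene-related peptide, a vasodilator neuropeptide.

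The granule genes did not move together. CALCB was far lower in the library labelled treated, CHGA was higher, and CHGB, SCG5, NCAM1 and SCG3 were modestly lower. A gene is called higher or lower below where the library labelled treated differed by 1.5-fold or more. Of the 8 detected genes, 0 were called higher and 1, CALCB, was called lower. Of the 12812 genes of the background, 3.17% were called higher and 12.2% lower, so 1 of 8 is close to the background. With a minimum of 500 UMIs these shares were 2.38% and 6.37%, and with 1 UMI in each library they were 8.34% and 22.9%. By mean level, 4.92% of genes of 1 to 10 CPM were called higher and 23.5% lower, 1.97% and 5.15% of genes of 10 to 100 CPM, and 1.17% and 2.07% of genes above 100 CPM. The 8 genes split into 3 above and 5 below a ratio of 1, with a median log2 ratio of -0.20, beside -0.0065 over all genes. With SCG2 included, the median of the 9 genes was -0.27.

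**Figure D1:**
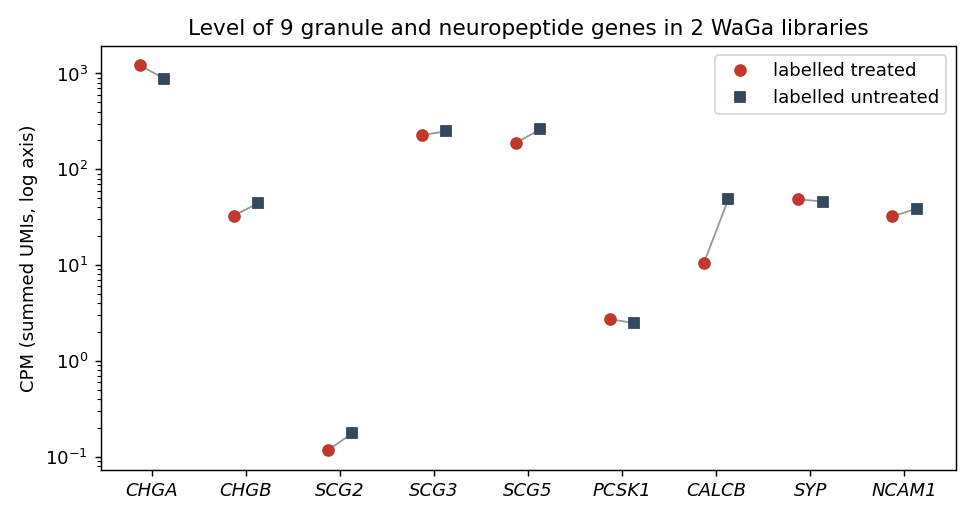
Level of each of the 9 genes (CPM of UMIs summed over the library, log axis) in the library labelled treated (circles) and the library labelled untreated (squares), joined by a line. CHGA stands highest in both libraries and SCG2 lowest, and the steepest line is that of CALCB, at 10.6 against 49.0 CPM.

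CHGA was the dominant transcript. It had 73446 UMIs and 1221 CPM in the library labelled treated, against 40383 UMIs and 886 CPM in the library labelled untreated, a ratio of 1.38 (1.36 to 1.39). By level it ranked 132nd of all genes in the library labelled treated and 169th in the library labelled untreated. Of all genes with at least 100 UMIs, 6.11% had a higher ratio. CHGA alone made up 69.2% of the UMIs of the 9 genes in the library labelled treated and 56.1% in the library labelled untreated. The 9 genes summed to 1764 CPM against 1579 CPM. Without CHGA the order turned, with 543 CPM in the library labelled treated and 692 CPM in the library labelled untreated.

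The difference in CHGA ran through the whole range of cells. Per 10000 UMIs of a cell, CHGA had a 10th percentile of 3.53, a median of 10.2 and a 90th percentile of 23.3 in the library labelled treated. In the library labelled untreated these were 2.26, 7.0 and 17.3. After each cell was thinned to 4351 UMIs, to remove the difference in depth, 96.2% (95.7% to 96.7%) of 6012 cells labelled treated and 91.8% (90.9% to 92.7%) of 3892 cells labelled untreated held a CHGA UMI. Unthinned, the shares were 98.2% and 97.4%. Cells with 10 or more CHGA UMIs after thinning made up 13.2% of cells labelled treated and 6.29% of cells labelled untreated. Cells with 5 to 9 UMIs made up 36.6% of cells labelled treated and 25.7% of cells labelled untreated, and the classes of 0, 1, 2 and 3 to 4 UMIs all held a smaller share of the cells labelled treated.

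**Figure D2:**
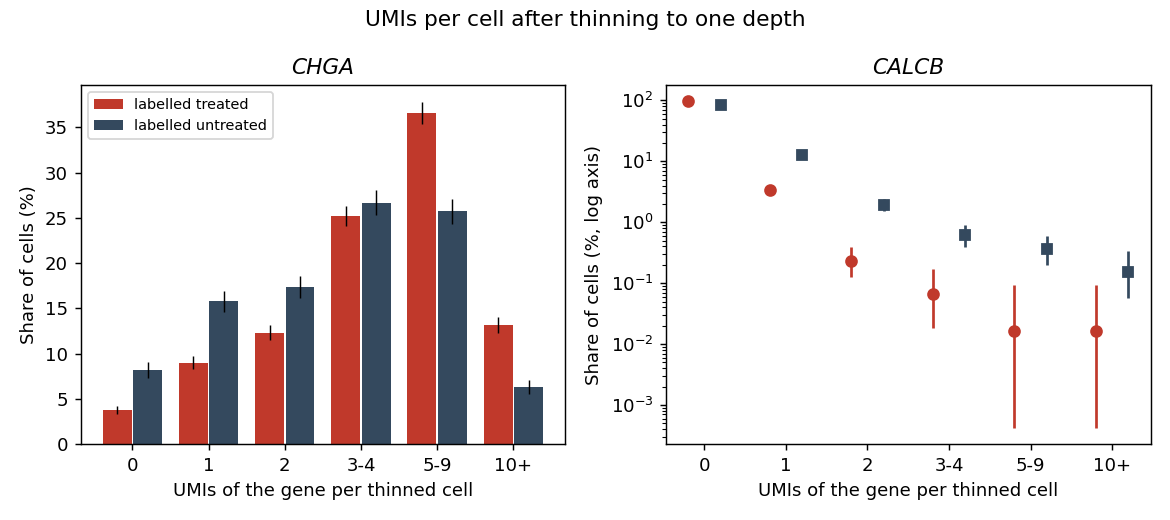
Share of cells (%) by the number of UMIs of CHGA (left, bars, linear axis) and CALCB (right, points, log axis) after thinning each cell to 4351 UMIs, in the library labelled treated (red) and the library labelled untreated (dark blue), with 95% exact binomial intervals. For CHGA the cells labelled treated have the larger share at 5 UMIs and above, and for CALCB the cells labelled untreated have the larger share in every class above 0.

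Among the other granins, SCG5 and CHGB were lower and SCG3 nearly level. SCG5 had 189 CPM in the library labelled treated against 261 CPM in the library labelled untreated, a ratio of 0.721 (0.703 to 0.740), and 84.4% of genes had a higher ratio. In thinned cells it was seen in 53.1% of cells labelled treated and 64.4% of cells labelled untreated, and unthinned in 71.4% and 85.8%. CHGB, the sister granin of CHGA, went the other way from it, with 32.7 CPM in the library labelled treated against 44.4 CPM in the library labelled untreated and a ratio of 0.738 (0.693 to 0.785). Its share of thinned cells was 13.6% among cells labelled treated and 18.1% among cells labelled untreated. SCG3, a granin that binds CHGA and cholesterol at the granule membrane, had 227 and 249.9 CPM in the libraries labelled treated and untreated, a ratio of 0.908 (0.886 to 0.931). SCG2, whose protein gives rise to secretoneurin, was close to absent, with 7 UMIs in the library labelled treated and 8 in the library labelled untreated. Its ratio of 0.663 had an interval of 0.205 to 2.09, so no difference was detectable at this depth.

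PCSK1 was scarce. It had 164 UMIs in the library labelled treated and 113 in the library labelled untreated, or 2.73 and 2.48 CPM, and its ratio of 1.10 had an interval of 0.860 to 1.41. In cells called G2/M its ratio was 1.79 (1.13 to 2.91) from 78 and 26 UMIs, and in cells called S it was 0.912 (0.655 to 1.27), so its direction was not settled by these counts. In thinned counts its log2 ratio was 0.54, against 0.14 unthinned.

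The 5′ flanks of 5 of the 9 genes were found in the RefSeq table (build GRCh38.p14, which is not the hg19 build of the deposited counts), in 6 windows, and 3 are shown because CHGA and PCSK1 share a known hormone gene element and SCG5, the granin that covaried most with CHGA below, lacks it. Each stretch is the 250 bases before the transcript start. Capitals mark TGACGTCA, the cAMP response element, which reads the same on both strands. It was present in 2 of the 6 windows and in 1.65% of all 35116 windows of that length, and its first base lies 54 bases before the start in CHGA and 77 in PCSK1. The window of CHGA (chr14:92922900-92923149, plus strand), that of PCSK1 (chr5:96433249-96433498, minus strand) and that of SCG5 (chr15:32641460-32641709, plus strand) read as follows.
CHGA: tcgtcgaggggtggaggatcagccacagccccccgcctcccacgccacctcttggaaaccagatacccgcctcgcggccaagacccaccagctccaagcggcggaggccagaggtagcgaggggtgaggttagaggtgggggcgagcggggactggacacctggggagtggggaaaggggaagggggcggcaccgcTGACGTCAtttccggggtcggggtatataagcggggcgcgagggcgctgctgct
PCSK1: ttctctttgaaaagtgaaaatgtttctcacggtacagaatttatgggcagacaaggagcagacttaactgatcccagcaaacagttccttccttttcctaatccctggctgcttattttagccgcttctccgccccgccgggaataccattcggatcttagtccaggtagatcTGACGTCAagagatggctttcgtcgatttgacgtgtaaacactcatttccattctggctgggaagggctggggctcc
SCG5: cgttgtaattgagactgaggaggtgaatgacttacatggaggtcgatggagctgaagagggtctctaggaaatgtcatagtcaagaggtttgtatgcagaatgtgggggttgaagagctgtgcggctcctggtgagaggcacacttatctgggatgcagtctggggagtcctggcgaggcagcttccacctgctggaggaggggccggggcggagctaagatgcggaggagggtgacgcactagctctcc
The match is a description of the letters in these windows, and no binding was measured. GGGCGG, searched on both strands as well, was present in the CHGA, PCSK1 and SCG5 windows and in 42.6% of all windows.

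CALCB showed the largest difference of the 9 genes. It had 640 UMIs and 10.6 CPM in the library labelled treated, against 2233 UMIs and 49.0 CPM in the library labelled untreated, a ratio of 0.217 (0.198 to 0.237), or 4.61-fold lower. Only 1.01% of genes had a lower ratio. CALCB averaged between 10 and 100 CPM, a band in which 5.15% of genes were called lower. In thinned cells, 3.76% (3.29% to 4.27%) of cells labelled treated and 15.6% (14.4% to 16.7%) of cells labelled untreated held a CALCB UMI, and unthinned 7.38% and 30.3%. No cell type lacking the gene was present to gauge free RNA. With a pseudocount of 0.1 per 10000 the log2 ratio was -1.52, against -2.20 without.

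CALCB was spread unevenly over cells for a gene of its level. Most cells had none, while single cells reached 30 UMIs in the library labelled treated and 24 in the library labelled untreated. The 1% of thinned cells richest in CALCB carried 37.5% of its UMIs in the library labelled treated and 26.0% in the library labelled untreated. This share also rises as a gene gets scarcer (for PCSK1 it was 76.5% and 100%), so it does not compare the spread in the libraries. The variance of thinned CALCB counts was 1.73 times the mean in the library labelled treated and 2.77 times in the library labelled untreated. Counts spread by sampling alone give 1. Of the genes within 1.5-fold of its mean level, 1 of 2516 in the library labelled treated and 1 of 1760 in the library labelled untreated had as large a value. Cells with 5 or more thinned CALCB UMIs numbered 2 of 6012 labelled treated, in the classes of 5 to 9 and of 10 or more with 1 cell each, against 14 and 6 of 3892 labelled untreated. The 2 cells labelled treated carried 2.65% and 4.17% of the thinned CALCB UMIs of their library. So few rich cells weigh heavily on a variance, and the value of 1.73 was not computed without them. Without the 1% of cells richest in CALCB in each library, the log2 ratio was -2.37, against -2.20 with them. Those cells were picked by the same CALCB counts, so this value is a description and no separate support for the lower level.

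CALCB lies beside its paralog CALCA, the alpha form, and the 2 genes overlap on opposite strands in GENCODE release 29, so reads in the shared or near-identical stretches may be split or lost between them. CALCB also overlaps CALCP on the same strand. SCG3, SCG5, PCSK1, SYP and NCAM1 overlap annotated genes on the opposite strand, and no source used here states whether counting used strand. CALCA had 8 UMIs in the library labelled treated and 18 in the library labelled untreated. Markers of other cell types were lower in the library labelled treated as well. Of 12 markers of other cell types with at least 100 UMIs, 9 were called lower and 0 higher, beside 12.2% and 3.17% of all genes. All of the 9 but SFN and DCN averaged 1 to 10 CPM, a band in which 23.5% of all genes were called lower. The 47 markers in the table summed to 403 CPM in the library labelled treated and 471 CPM in the library labelled untreated. Without the keratinocyte set the sums were 44.0 and 67.7 CPM. Of the 47, 14 were at 0 in both libraries, MS4A1, CD3D, TYR, HBB and COL3A1 among them. Their part in the lower level of CALCB was not tested.

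SYP differed little between the libraries. It had 48.7 CPM in the library labelled treated and 46.1 CPM in the library labelled untreated, a ratio of 1.06 (0.998 to 1.12), and the ratio was 0.930 (0.851 to 1.02) in cells of 7000 to 12000 UMIs. The thinned shares of cells with a SYP UMI, 19.5% among cells labelled treated and 18.5% among cells labelled untreated, had overlapping intervals. NCAM1 was lower, with 32.2 CPM in the library labelled treated against 38.8 CPM in the library labelled untreated and a ratio of 0.830 (0.778 to 0.886). Its thinned shares were 13.1% (12.2% to 13.9%) and 14.8% (13.7% to 15.9%), and its ratio in cells of 7000 to 12000 UMIs was 0.965 (0.868 to 1.07).

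Since 3′ libraries count each captured molecule once and without regard to length, the order of the 9 genes can be read within a library, apart from differences in capture. In the library labelled treated it ran CHGA, SCG3, SCG5, SYP, CHGB, NCAM1, CALCB, PCSK1 and SCG2, and only CHGB and NCAM1 had overlapping intervals. In the library labelled untreated it ran CHGA, SCG5, SCG3, CALCB, SYP, CHGB, NCAM1, PCSK1 and SCG2, where the intervals of CALCB and SYP overlapped and those of SYP and CHGB. CALCB thus stood 7th in the library labelled treated and 4th in the library labelled untreated, and SCG3 and SCG5 changed places.

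**Figure D3:**
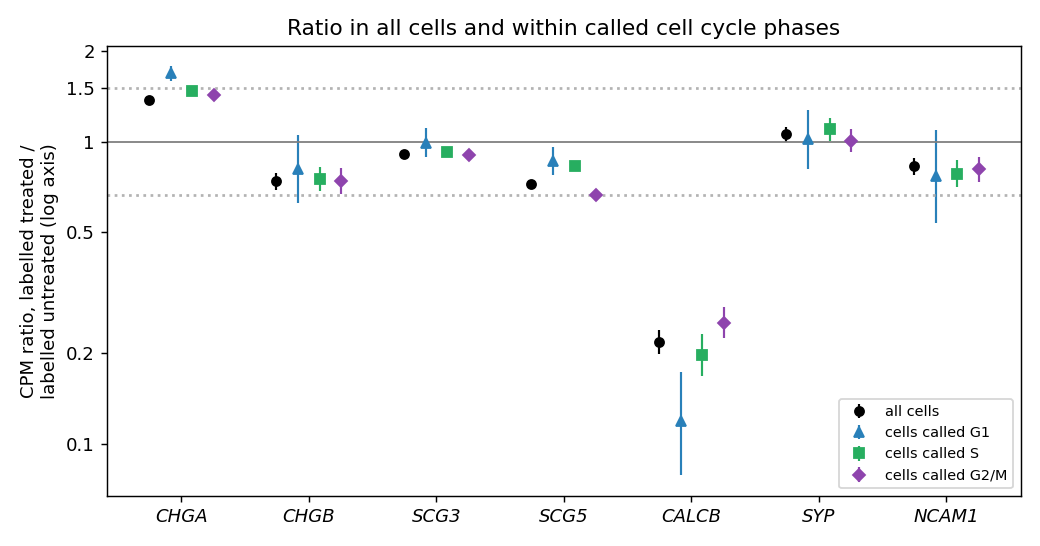
Ratio of CPM, labelled treated over labelled untreated (log axis), for 7 of the 9 genes in all cells and in cells called G1, S and G2/M, with 95% exact intervals for counting error. Dotted lines mark 1.5-fold either way. CHGA lies above 1 and CALCB below 0.3 in every phase.

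The level of CHGA and SCG5 varied with the called phase of the cell cycle. Phases were called from transcript scores that contain none of the 9 genes. CHGA had 1333 CPM in cells called G1, 1642 in S and 869 in G2/M in the library labelled treated, and 793, 1115 and 608 CPM in the library labelled untreated. Both libraries were thus highest in S and lowest in G2/M. The ratio was 1.68 (1.59 to 1.77) in G1, 1.47 (1.451 to 1.496) in S and 1.43 (1.40 to 1.46) in G2/M, above the pooled 1.38 in each. Cells called G2/M made up 47.5% of thinned cells labelled treated and 35.1% of cells labelled untreated.

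SCG5 followed the same course within each library. It had 253 CPM in G1, 262 in S and 123 in G2/M in the library labelled treated, and 292, 316 and 184 CPM in the library labelled untreated. Its ratio was 0.865 (0.777 to 0.961) in G1, 0.830 (0.803 to 0.858) in S and 0.666 (0.635 to 0.698) in G2/M, the last just past 1.5-fold lower. The ratios between the libraries varied less for CHGB, SCG3 and NCAM1, at 0.742 to 0.814, 0.900 to 0.990 and 0.770 to 0.808 over the phases. By level, CHGB and SCG3 were also lowest in G2/M in both libraries, while NCAM1 was highest there. NCAM1 had 23.0 CPM in G1, 27.8 in S and 36.3 in G2/M in the library labelled treated. In the library labelled untreated it had 29.8, 35.5 and 44.9 CPM. Its G1 levels rest on 53 UMIs labelled treated and 88 labelled untreated.

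CALCB had another pattern. In the library labelled untreated it was at 109.8 CPM in cells called G1, 37.6 in S and 51.8 in G2/M. In the library labelled treated it was at 13, 7.38 and 13.03 CPM. Its ratio was 0.118 (0.0786 to 0.172) in G1, from 30 and 324 UMIs, 0.196 in S and 0.252 (0.223 to 0.283) in G2/M. By depth, cells labelled treated had 10.7 CPM under 6000 UMIs, 11.3 CPM from 6000 to 9000, 9.75 CPM from 9000 to 12000 and 10.95 CPM above. Cells labelled untreated had 109 CPM under 6000 UMIs, 59.3, 46.7 and 41.5 CPM in the same bands. The ratio was therefore lowest, 0.0990 (0.0753 to 0.129), in the shallowest cells, where the libraries held 1488 and 587 cells.

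**Figure D4:**
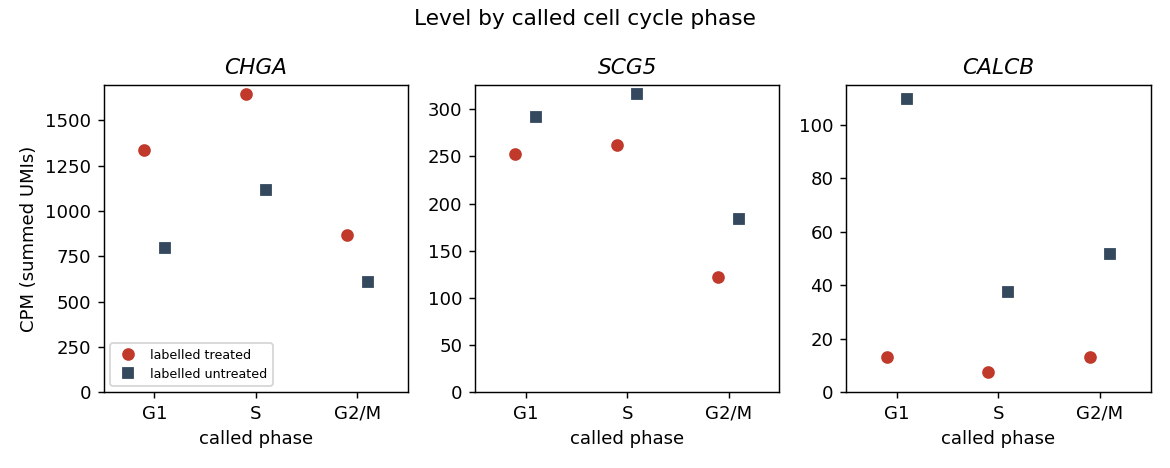
Level of CHGA, SCG5 and CALCB (CPM of UMIs summed over cells, linear axes from 0) in cells called G1, S and G2/M, in the library labelled treated (circles) and the library labelled untreated (squares). CHGA and SCG5 are lowest in G2/M in both libraries, and CALCB peaks at 109.8 CPM in G1 cells labelled untreated.

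Across thinned cells of 1 library, CHGA and SCG5 varied together more than any other pair of the 9 genes, with Pearson's r of 0.199 over 6012 cells labelled treated and 0.189 over 3892 cells labelled untreated. All other pairs had r between -0.092 and 0.048. These values come from sparse counts of cells that share a library and are given as a description. Of 4461 genes seen in at least 10% of thinned cells of both libraries, those most like CHGA were PCNA (r of 0.312 in cells labelled treated and 0.295 in cells labelled untreated), CCER2 (0.280 and 0.312) and ENO1 (0.260 and 0.220). PCNA, the DNA polymerase clamp of S phase, is on the S list used for the phase calls, and ENO1 is a glycolytic enzyme. For SCG5 the order was CHGA, PCNA (0.175 and 0.160) and CCER2 (0.127 and 0.213). For SCG3 the order was TIPIN (0.043 and 0.044), SCG5 (0.038 and 0.048) and LRPAP1 (0.041 and 0.037), values too small to set these genes apart. The other 6 genes were not seen in 20% of thinned cells of both libraries, the minimum set for naming like genes. CCER2 was itself lower in the library labelled treated, with 3037 CPM against 4611 CPM in the library labelled untreated.

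The spread of CHGA over cells exceeded sampling in both libraries, with a variance of thinned counts 2.84 times the mean in the library labelled treated and 2.77 times in the library labelled untreated. Genes within 1.5-fold of its mean had medians of 1.17 and 1.25, and 4 of 97 and 6 of 119 of them reached its value. SCG5 had 1.23 in both libraries, and SCG3 had 1.09 and 1.07. CHGB, NCAM1 and SYP lay between 0.988 and 1.07, as did PCSK1, so that their counts showed little spread beyond sampling at this depth.

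The other genes of the secretory pathway were taken from 10 lists. Of 103 genes outside the 9 with at least 100 UMIs, 1 was called higher and 22 were called lower, or 0.971% and 21.4%, and the median log2 ratio was -0.06. Of the 22, 17 were among the 37 genes under 10 CPM on average and 5 among the 66 genes above. Most of the lower genes were thus weakly expressed. The 17 of 37 were a larger share than the 23.5% called lower among all genes of 1 to 10 CPM, a difference that was not tested. The lists were chosen with earlier results known, and their counts are descriptions.

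**Figure D5:**
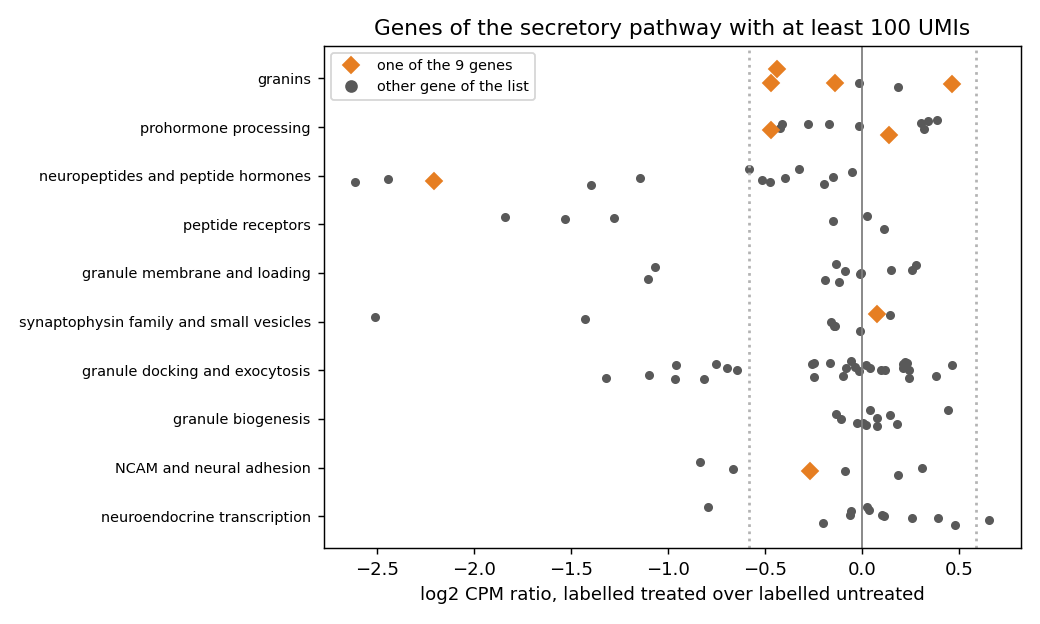
Log2 CPM ratio of the library labelled treated over the library labelled untreated for the genes of 10 secretory pathway lists with at least 100 UMIs. Diamonds are members of the 9 genes, circles the other genes, and dotted lines mark 1.5-fold either way; CALCB lies in a group of lower neuropeptide genes, and most genes of the other lists lie near 0.

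Neuropeptides and peptide hormones were the list with the most uniform direction: 12 of 12 genes outside the 9 had a ratio below 1. Over all genes the median log2 ratio was -0.0065, so the middle gene also lay just below a ratio of 1. Of these, 4 were called lower, beside 12.2% of all genes, and the median log2 ratio was -0.49. NMU (neuromedin U) had 0.632 CPM in the library labelled treated against 3.86 CPM in the library labelled untreated, a ratio of 0.164 (0.112 to 0.233). VIP, a smooth muscle relaxant peptide, had 1.30 against 7.05 CPM, a ratio of 0.184 (0.142 to 0.236). The other 2 were the natriuretic peptide genes NPPA and NPPC, at 0.452 and 0.380, named after their values were seen. NMU, VIP and NPPC averaged 1 to 10 CPM, a band in which 23.5% of all genes were called lower. NPPA averaged 10 to 100 CPM, a band in which 5.15% were. The most abundant neuropeptide gene, TAC3 (neurokinin B), had 834 CPM in the library labelled treated and 865 CPM in the library labelled untreated and a ratio of 0.964 (0.951 to 0.977), and NPY and NPW had ratios of 0.759 and 0.701. These 3 were also picked after their values were seen. No UMI was seen in either library for 11 genes of the list, SST, PENK, TAC1 and GRP among them.

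Genes of peptide receptors had 3 of 6 called lower and 0 higher, beside 12.2% and 3.17% of all genes, and their median log2 ratio was -0.71. All 3 averaged 1 to 10 CPM, a band in which 23.5% of all genes were called lower. RAMP1, the partner protein of the calcitonin gene-related peptide receptor, had a ratio of 0.279 (0.204 to 0.377) from 60 UMIs in the library labelled treated and 163 in the library labelled untreated. VIPR1, a receptor of VIP, had a ratio of 0.345 (0.244 to 0.484). CRCP, a component protein of the calcitonin gene-related peptide receptor, had a ratio of 1.08 (1.03 to 1.14). CALCRL and CALCR, which encode the receptors themselves, had 0 UMIs in both libraries.

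Genes of granins and prohormone processing outside the 9 had 0 genes past 1.5-fold either way. VGF, a granin-like peptide precursor, had 43.8 CPM in the library labelled treated against 38.5 CPM in the library labelled untreated, a ratio of 1.14 (1.07 to 1.21). CPE, the carboxypeptidase that trims peptides after the convertases, had 427 CPM against 573 CPM and a ratio of 0.745 (0.732 to 0.758), near those of CHGB and SCG5. PAM, which amidates peptide ends, had 0.751 (0.625 to 0.903), while the convertase PCSK7 had 1.24 (1.17 to 1.31) and the carboxypeptidase CPD 1.31 (1.15 to 1.498).

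Among genes of the granule membrane, 2 of 11 were called lower, beside 12.2% of all genes. These were CYB561, an electron carrier of the granule membrane, at 0.477 (0.412 to 0.551), and PTPRN (IA-2), at 0.466 (0.369 to 0.586). The proton pump subunit gene ATP6V1A had 1.21 (1.13 to 1.30) and the vesicle protein gene SV2C 1.19 (1.04 to 1.37). Of 7 genes related to SYP or to small vesicles, 2 were called lower, beside the same 12.2%. SYNGR4, of the synaptogyrin family, had 28.3 CPM in the library labelled treated against 161 CPM in the library labelled untreated, a ratio of 0.176 (0.167 to 0.185), and SYNGR3 had 0.372 (0.284 to 0.484). SCAMP1 had 1.11 (1.04 to 1.18).

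Of 29 genes of granule docking and exocytosis, 0 were called higher and 8 lower, beside 3.17% and 12.2% of all genes. The median log2 ratio was -0.06. The small GTPase gene RAB3B had 0.568 (0.522 to 0.617). The calcium sensor gene SYT1 had 58.8 CPM in the library labelled treated against 42.7 CPM in the library labelled untreated, a ratio of 1.38 (1.30 to 1.46), and NAPA, an adaptor that helps to recycle SNARE complexes, had 1.18 (1.15 to 1.22). Granule biogenesis genes had 0 of 11 past 1.5-fold, with VPS51 and C10orf118 highest at 1.36 and 1.13 and TSSC1 and ARFIP2 lowest at 0.911 and 0.926. Of 5 adhesion genes other than NCAM1, 2 were called lower, against 12.2% of all genes. These were CADM1 at 0.630 (0.591 to 0.671) and NCAM2 at 0.560 (0.387 to 0.807).

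Neuroendocrine transcription factors and their partners had 1 of 12 called higher and 1 lower, beside 3.17% and 12.2% of all genes. Their median log2 ratio was 0.07. SOX2, a Merkel lineage factor, had 132 CPM in the library labelled treated against 83.7 CPM in the library labelled untreated, a ratio of 1.57 (1.51 to 1.64), and the REST corepressor family gene RCOR2 had 1.40 (1.28 to 1.52). HES6, a basic helix-loop-helix factor, had 0.871 (0.866 to 0.876). REST, which represses neuronal and granin genes in non-neural cells, had 0 UMIs in the library labelled treated and 3 in the library labelled untreated.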

How the data were processed

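The authors deposited 1 table of natural log values for both samples. Per the submitters' processing notes, Cell Ranger, Seurat and the build hg19 were used; no source used here gives their versions or the filters on cells. Back-transformed, the deposited natural log values sum to 10000 in each cell, so each is the natural log of 1 plus the count per 10000. In each cell the smallest value above 0 was taken as 1 UMI, with which 100% of values were whole multiples within a relative tolerance of 1e-06. UMI counts were summed per library, and ratios of CPM were given Clopper-Pearson intervals, which cover counting error only. No cells were filtered and doublets were not called.

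UMIs of each cell were drawn without replacement down to 4351, which is the 10th percentile of cell totals in the shallower library, leaving out 667 cells labelled treated and 245 labelled untreated. Phases were called with scanpy 1.11.5 from 40 S and 54 G2/M genes in thinned cells of both libraries together. The genes, lists and fold of 1.5 were chosen with earlier results of these data known. Named genes were the 9, plus up to 2 at either end of each list by the interval bound nearest to 1, plus the 3 genes most alike across cells for members seen in at least 20% of thinned cells. Some genes that this rule names are not reported here. Ratio intervals were tested on simulated data, and the outcome is not reported here. Computation used Python 3.11.15, numpy 2.4.6, scipy 1.17.1 and pandas 2.3.3.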

Additional observations from a re-analysis of the deposited data

How the results depend on the processing

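No paired analysis was possible because each group had 1 library, and for the same reason no library could be left out. Of the 8 genes with at least 100 UMIs, the number at least 1.5-fold higher in the library labelled treated was 0, but 1 in cells called G1 (CHGA) and 1 in cells called G2/M (PCSK1). The number at least 1.5-fold lower was 1, but 2 in cells called G2/M (CALCB and SCG5). The median log2 ratio stayed within 0.1 of -0.20 in every alternative run. Over 12 alternatives the log2 ratio of CALCB ranged from -3.08 to -1.52, that of CHGA from 0.45 to 0.75, that of SCG5 from -0.59 to -0.21, that of CHGB from -0.48 to -0.30, that of SCG3 from -0.16 to -0.015 and that of NCAM1 from -0.38 to -0.052. PCSK1 ranged from -0.13 to 0.84 and SYP from -0.11 to 0.13, across 0. The share of all genes at least 1.5-fold lower was 6.37% with a minimum of 500 UMIs and 22.9% when 1 UMI per library was enough, against 12.2%. The cause of these shifts was not tested. Leaving out the 1% of cells richest in a gene, the bands of depth and the bands of expression were chosen after the data were seen. Depth limits SCG2 and PCSK1 most.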

Other observations

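The protein-coding neighbours of CALCB, in the order of the RefSeq annotation (GRCh38.p14, used only for order), did not share 1 ratio. INSC, the next gene on one side, had 31 UMIs in the library labelled treated and 122 in the library labelled untreated, a ratio of 0.192 (0.125 to 0.287). Beyond it, SOX6 had 1.05 (1.003 to 1.106) and C11orf58 had 1.08 (1.06 to 1.10). On the side of CALCA, whose ratio was 0.337 (0.127 to 0.814), CYP2R1 had 0.727 (0.660 to 0.799) and PDE3B had 1.26 (1.10 to 1.46). These genes were chosen by position, after the values of CALCB were seen.

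Genes were ranked by their r with CALCB across thinned cells of the library labelled untreated, among 9900 seen in at least 2% of those cells. The 5 with the highest positive r were TMSB4X (r of 0.046 in cells labelled treated and 0.136 in cells labelled untreated), the linker histone gene H1F0 (0.042 and 0.135), and DDIT3 (0.0028 and 0.108), ATF5 (0.030 and 0.097) and STC2 (0.019 and 0.097), which are known from the integrated stress response. The most negative were PTMA (-0.012 in cells labelled treated and -0.154 in cells labelled untreated), CCER2 (-0.024 and -0.126) and CYBA (-0.027 and -0.108). The ranking used the library labelled untreated alone and was chosen after values of CALCB were seen. CALCB was seen in few cells, and values of this size in sparse counts are given as a description only.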
